A study of Caenorhabditis elegans with 4 samples.

Results

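The centre of chromosome V of *Caenorhabditis elegans* was described by its RNA polymerase II peaks. Members were all peaks on V with a midpoint from 5.9 to 16.55 Mb (WS220 coordinates), an interval defined by position, though chosen with earlier results of these data known. It held 254 of the 2672 peaks of replicate 1 (9.51%), 337 of the 3818 peaks of replicate 2 (8.83%) and 1490 of the 18518 peaks of the series-level list (8.05%), or 2081 peaks in all. These were 63.2%, 60.7% and 59.3% of the peaks that each list placed on chromosome V.

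The study targeted AMA-1, which is RNA polymerase II's large subunit, by ChIP-seq in wild-type N2 embryos of mixed stages grown at 20 °C, taken from a population of males and hermaphrodites. The embryos were fixed with 2% formaldehyde for 30 min, and chromatin was precipitated with a rabbit polyclonal antibody. There were 2 AMA-1 ChIP samples and 2 input samples, all of the same strain, genotype and stage, and the input samples were not analysed here. The sources used here do not say if the inputs served as controls in the peak calling. Whether the replicates are separate cultures is not given in the labels, and their spread may be technical only. Embryos of all stages and all their cell types were pooled, so a region with polymerase in few cells and a region with little polymerase in all cells cannot be told apart.

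RNA polymerase II transcribes protein-coding genes and many non-coding RNAs, and a ChIP peak of its large subunit marks DNA where the enzyme was bound, at a start site, along a gene or downstream of it. Worm genes are compact and many lie in operons, which are transcribed as a unit from a single promoter, so a broad peak can span more than 1 gene. The centres of *C. elegans* autosomes recombine little and hold many conserved and essential genes, while the arms of V are known for large families of chemoreceptor and nuclear hormone receptor genes. The centres of I, II, III and IV served as background, each taken at the same relative position as on V, from 28.2% to 79.2% of the chromosome. They spanned 31.4 Mb, against 10.65 Mb on V. Regions are given by position alone, since no WS220 annotation was used here.

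The centre of V held fewer polymerase peaks per Mb than any of the other autosome centres in each of the 3 lists. In replicate 1 it had 23.8 peaks per Mb (95% Poisson interval 21.0 to 27.0), and the other centres together had 35.5 (33.4 to 37.6). In replicate 2 it had 31.6 peaks per Mb (28.4 to 35.2), against 48.6 (46.2 to 51.1) in the other centres. The ratio of V to the other centres was 0.672 in replicate 1, with an exact conditional interval of 0.584 to 0.771. Replicate 2 gave 0.652 (0.577 to 0.734), for a mean of 0.662 ± 0.015 (SD, n = 2). The series-level list gave 139.9 peaks per Mb for V and 241.5 for the others, a ratio of 0.579 (0.548 to 0.612). Intervals here and below cover counting error alone, although peaks close to each other may depend on one another.

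The deficit was deep against I, II and III and shallow against IV. In replicate 1 the ratio of V to another centre was 0.594 for I, 0.659 for II and 0.583 for III, and in replicate 2 it was 0.598, 0.647 and 0.580. Against IV it was 0.899 (0.750 to 1.08) in replicate 1, where the interval includes 1, and 0.795 (0.683 to 0.926) in replicate 2. A difference in peak density between the V and IV centres was therefore not detectable in replicate 1. With 1 chromosome against 4, an exact two-sided permutation of the chromosome labels cannot go below p = 0.2, and it gave 0.2 for peak density in each of the 3 lists.

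**Figure D1:**
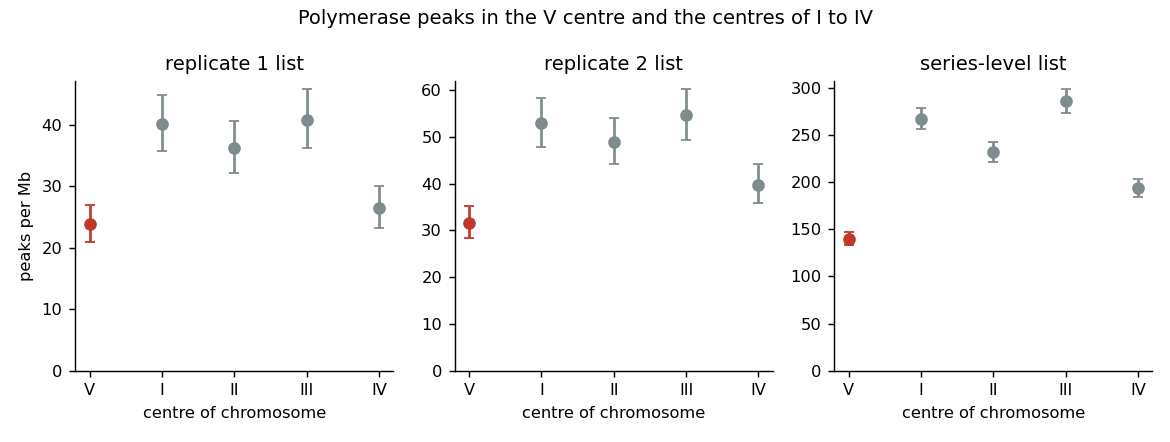
Peaks per Mb (vertical axes, each starting at 0) in the centre of V (red) and in the centres of I to IV (grey), for replicate 1, replicate 2 and the series-level list. Points are densities and bars are 95% Poisson intervals; V lies lowest in each list, with 23.8, 31.6 and 139.9 peaks per Mb, and IV lies next to it.

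The V centre also had the lowest share of bases covered by peaks, though close to that of IV in replicate 1. Replicate 1 peaks covered 1.23 Mb of the V centre, or 11.5% of its bases, against 16.1% of the other centres, and replicate 2 peaks covered 1.66 Mb, or 15.6%, against 23.6%. The ratio of covered shares was 0.688 ± 0.039 (SD, n = 2). The bases inside peaks of both replicates came to 1.06 Mb, or 9.92% of the V centre, against 13.3% of the other centres. On IV this shared coverage was 10.8%, the value nearest to that of V, and on I, II and III it lay from 14.1% to 14.5%. For the share covered in each replicate, V was again the lowest of the 5 centres (exact permutation p = 0.2 in both). On IV that share was 11.9% in replicate 1, near the 11.5% of V, and 19.2% in replicate 2.

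The median peak of the V centre was wider than that of the other centres in both replicates, by less than the intervals of the medians allow to tell apart. The median width was 3848 bp (exact order-statistic interval 3539 to 4285) in replicate 1, against 3559 bp (3416 to 3806) in the other centres. In replicate 2 it was 3749 bp (3179 to 4270), against 3529.5 bp (3372 to 3739). The ratio of V to the pooled other centres was 1.07 ± 0.013 (SD, n = 2). V had the widest median of the 5 centres in each of the 3 lists, by a ratio of only 1.03 over II, the next widest, in both replicates, and the permutation of chromosome labels gave exact p = 0.4 in replicate 1 and 0.2 in replicate 2. Peaks wider than 8 kb made up 13.4% of members in replicate 1 and 16.6% in replicate 2, against 12.8% and 15.7% elsewhere. Width and score went together in the V centre, with a Spearman rho over peaks of 0.71 in replicate 1 and 0.75 in replicate 2, a description over peaks of one list.

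The density ratio was below 1 in every score quartile of both replicates, while at the top of the scores its interval included 1. Scores are the authors' own values from their peak caller, of unstated scale, and are compared here within a list only. Sorted into quartiles of the whole list, the density ratio of V to the other centres spanned 0.629 to 0.740 for replicate 1 and 0.533 to 0.713 for replicate 2, and the interval of each lay below 1. Among peaks at or above 3100, the value at which many replicate scores pile up, the V centre had 49 in replicate 2, or 4.601 per Mb, against 4.97 per Mb elsewhere, a ratio of 0.925 (0.657 to 1.28). In replicate 1 it had 14 such peaks, or 1.31 per Mb, against 1.72, a ratio of 0.764 (0.392 to 1.39). The top 1% of the series-level list gave 24 peaks on V, or 2.25 per Mb, against 2.39, a ratio of 0.943 (0.569 to 1.51). Taken singly, the other centres had from 3.48 to 6.29 such peaks per Mb in replicate 2 and from 1.69 to 2.71 in the series-level list. V lay inside both ranges. In replicate 1 they had from 1.35 to 2.09, and V lay just below. All 3 intervals include 1. Those of replicate 1 and of the series-level list also include the ratio over all peaks of the list, and that of replicate 2 begins at 0.657, just above its ratio over all peaks of 0.652. The difference between the ratio of the strongest peaks and that of all peaks was not itself tested.

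The 3 highest-scoring series-level peaks of the V centre included the highest of the whole list. That peak lay at V:9085723-9091817, spanned 6095 bp and scored 181.96. It sat inside a peak of 7131 bp in replicate 1 (V:9085320-9092450) and of 7565 bp in replicate 2 (V:9085315-9092879), both with a score of 3100. The next, at V:9337927-9345574, scored 148.69 over 7648 bp and ranked 20 in the whole list. The last, at V:15189906-15191941, scored 141.64 over only 2036 bp and ranked 31. It lay in the sparse right part of the centre, within peaks of 2457 bp in replicate 1 (score 720.09) and 2872 bp in replicate 2 (score 2579.15).

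In steps of 500 kb, the V centre fell into a long middle of moderate density and a sparse right end. The 21 full windows held from 4 to 20 peaks in replicate 1 (median 12) and from 5 to 24 in replicate 2 (median 16). The 61 full windows of the other centres held medians of 17 and 25. Below the other centres' median lay 18 of the 21 V windows by replicate 1, and all 21 by replicate 2 and by the series-level peaks. The middle of the centre had gaps and rich windows side by side. The window from 6.9 to 7.4 Mb held 6 peaks in replicate 1 and 10 in replicate 2, while its left neighbour from 6.4 to 6.9 Mb held 17 and 16, a pair chosen after its values were seen.

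The 3 windows with most bases covered in both replicates were spread along the centre. The richest ran from 8.4 to 8.9 Mb, with 95.04 kb in peaks of both replicates, or 19.0% of its bases. It held 15 peaks in replicate 1 and 17 in replicate 2, with median widths of 4405 and 5374 bp. The window from 11.9 to 12.4 Mb followed with 85.9 kb, and held the most peaks of any V window in both replicates, 20 and 24. The window from 14.4 to 14.9 Mb came next with 80.1 kb from 14 and 19 peaks, and its replicate 1 peaks were the widest of any V window, with a median of 6813 bp. Of the 61 windows of the other centres, 49, 48 and 43 had less shared coverage than these. The rich windows of V were thus rich by the measure of the other centres too, though none was among the highest there, where the top window had 125.3 kb.

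The 3 windows with least shared coverage were neighbours at the right end. From 14.9 to 15.4 Mb, 24.6 kb were covered in both replicates, from 15.4 to 15.9 Mb 17.5 kb, and from 15.9 to 16.4 Mb 9.91 kb. They held 8, 4 and 5 peaks in replicate 1 and 11, 5 and 8 in replicate 2. The remaining 150 kb up to 16.55 Mb held 0 replicate 1 peaks, 1 replicate 2 peak and 2 series-level peaks. None of the 61 windows elsewhere had as little shared coverage as the last 2 of the full windows. The window just left of them, from 14.4 to 14.9 Mb, was among the 3 richest of V, with 80.1 kb. Such a step between neighbours was not particular to this place. The window from 7.9 to 8.4 Mb had 30.1 kb and the next one 95.04 kb.

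**Figure D2:**
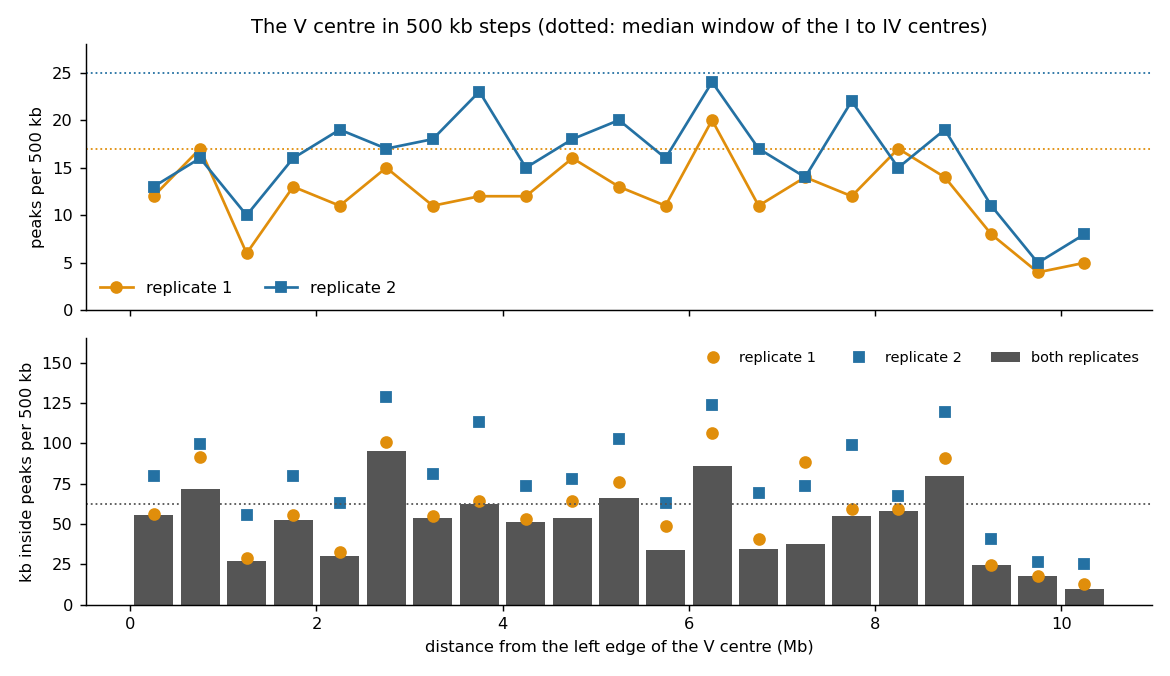
Peaks per full 500 kb window (top) and kb inside peaks (bottom; bars are bases in peaks of both replicates, points are each replicate) along the V centre, by distance from its left edge in Mb; the last 150 kb are not drawn. Dotted lines are the medians over the 61 windows of the I to IV centres, 17 and 25 peaks and 62.1 kb; the last 3 windows hold 4 to 8 peaks in replicate 1 and at most 24.6 kb of shared coverage.

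The right end accounted for part of the deficit of V, not for all of it. From 14.9 to 16.55 Mb the density was 10.303 peaks per Mb in replicate 1 and 15.2 in replicate 2, against 33.9 and 43.6 in the stretches at the same relative position on I to IV, ratios of 0.304 (0.173 to 0.501) by the first list and 0.347 (0.220 to 0.527) by the second. The lowest of those other stretches was on IV, with 27.6 and 37.7 peaks per Mb. This right end was singled out after its values were seen. When all 5 centres were shortened in this way, the ratio of V to the others was 0.737 (0.636 to 0.850) in replicate 1 and 0.701 (0.617 to 0.793) in replicate 2. The 9 Mb of the V centre that remain thus still held fewer peaks per Mb than the other centres in both lists.

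Divided at its midpoint, 11.225 Mb, the V centre showed no difference in peak density beyond counting error. The left side held 134 peaks in replicate 1 and the right side 120, a ratio of 1.12 (0.866 to 1.44). In replicate 2 there were 177 and 160, a ratio of 1.11 (0.888 to 1.38). Both intervals include 1. Without the right end past 14.9 Mb, a cut chosen after its values were seen, the mean ratio of densities was 0.901. The ratio thus moved to the other side of 1, but no interval was computed for it, so no difference is claimed. Median widths were 3885.5 bp on the left and 3766.5 bp on the right in replicate 1, and 4430 and 3153.5 bp in replicate 2.

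Neither edge of the interval fell on a step in peak density seen in both replicates. At the left edge the first member in replicate 1, at V:5942686-5944940, had a score of 55.62, and the last peak outside, at V:5837954-5847495, had 1293.9. In replicate 2 the scores were 271.57 inside and 79.69 outside. The first 500 kb inside held 12 and 13 peaks in replicates 1 and 2, and the last 500 kb outside held 12 and 19. At the right edge the last 500 kb inside held 4 and 7 peaks and the first 500 kb outside also 4 and 7. The members nearest that edge scored 237.5 in replicate 1 and 73.95 in replicate 2, and the nearest peaks outside 261.69 and 2621.98. In these lists the drop in density lay about 14.9 Mb, inside the right bound of 16.55 Mb.

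Peaks of the V centre were also set farther apart. The median distance from one peak's end to the next start was 20.3 kb (14.1 to 25.6) in replicate 1, against 11.5 kb (10.2 to 13.4) in the other centres, and 14.2 kb (11.6 to 18.8) in replicate 2, against 7.25 kb (6.40 to 8.22). In neither replicate did the intervals of these medians overlap. In the series-level list, whose peaks are narrower, the medians were 0.543 kb (0.478 to 0.586) on V and 0.478 kb (0.457 to 0.502) elsewhere, and there the intervals overlapped.

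Stretches free of both replicates' peaks were longer on V. Their median length was 13.7 kb (11.3 to 17.7) in the V centre and 6.40 kb (5.61 to 7.21) elsewhere. On IV, the nearest to V, it was 8.77 kb (7.05 to 12.4), and that interval overlaps the one of V. Stretches of over 50 kb took up 42.8% of the V centre, against 31.0% on IV and 13.2% to 20.7% on I, II and III. There were 17 stretches of over 100 kb in 10.65 Mb on V, and 15 in the 31.4 Mb of the other centres. The longest, V:15760737-16023010, ran for 262.3 kb and held 2 series-level peaks, one of which, at V:15873818-15874123, scored 27.31, at percentile 86.0 of its list. The next, V:16373012-16544665, ran for 171.7 kb and held 1 series-level peak, with a score of 5.87. The stretch that followed, V:7246295-7412734, lay in the left part of the centre, ran for 166.4 kb and held no peak in any of the 3 lists.

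**Figure D3:**
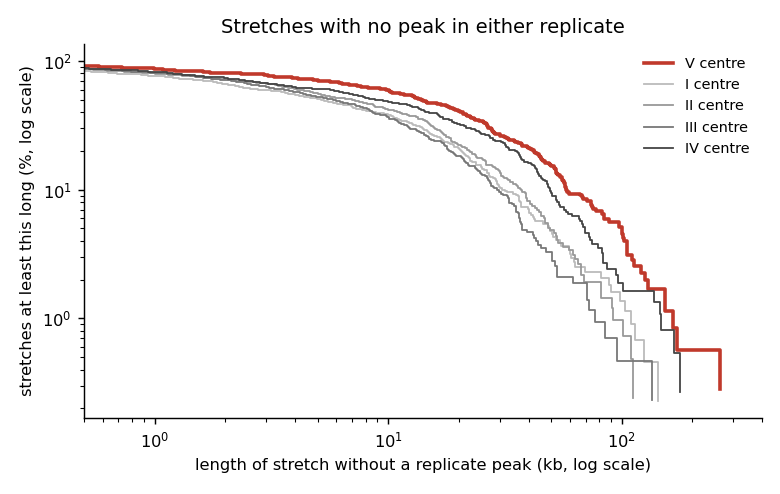
Share of the stretches without a peak in either replicate (vertical axis, log scale) that reach a given length in kb (horizontal axis, log scale), for the centre of V (red) and those of I to IV (greys). The V curve lies to the right of the others over most lengths, with a median of 13.7 kb and a longest stretch of 262.3 kb.

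A larger share of replicate 2 members than of replicate 2 peaks of other centres was found in the other replicate, and for replicate 1 no such difference was detectable. Of the 254 replicate 1 members, 231 overlapped a replicate 2 peak by at least 1 bp, a share of 90.9% (Wilson interval 86.8 to 93.9). The share was 86.9% in the other centres, and the difference of 4.06 percentage points had a Newcombe interval of -0.498 to 7.69, which includes 0. Of the 337 replicate 2 members, 210 overlapped a replicate 1 peak, a share of 62.3% (57.0 to 67.3), against 54.9% elsewhere. Here the difference of 7.39 points had an interval of 1.55 to 12.99, above 0. The share of V was the highest of the 5 centres for replicate 2 peaks. For replicate 1 peaks IV was higher, with 92.8%. Beside this, replicate 1 covered 11.5% of the V centre and 16.1% of the others, and the part of coverage in the sharing was not tested.

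In replicate 2 the interval of the difference lay above 0 in the lower score quartiles and included 0 in the upper ones, and whether the quartiles differ was not tested. In the lowest score quartile of replicate 2, 24 of 80 members (30.0%) overlapped replicate 1, against 15.9% in the other centres, a difference of 14.1 points (4.27 to 25.5). In the next quartile 33 of 70 did (47.1%), against 33.3%, a difference of 13.8 points (1.57 to 26.2). In the upper quartiles the shares were 67.8% against 71.7% and 94.8% against 93.3%, and both intervals of the difference include 0. For replicate 1 the interval of the difference included 0 in all 4 quartiles. The intervals are not adjusted for the number of quartiles.

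**Figure D4:**
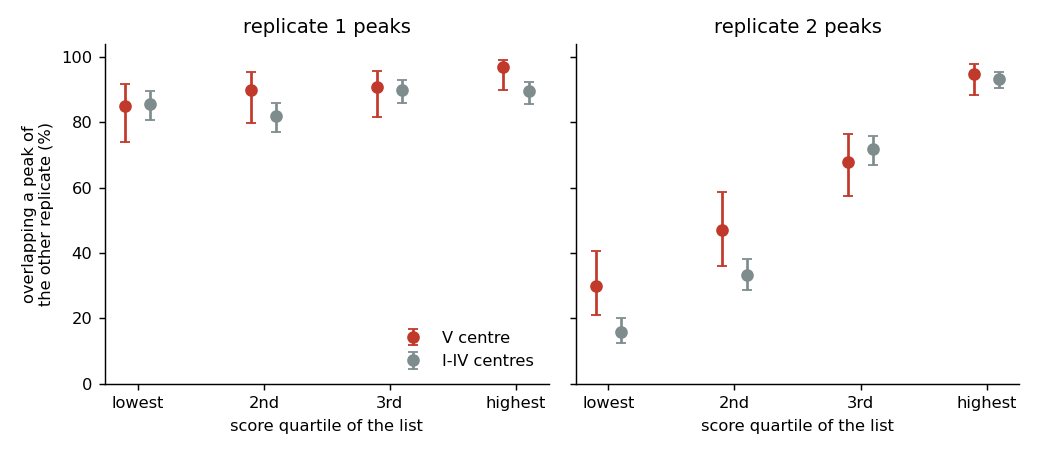
Share of replicate 1 peaks (left) and replicate 2 peaks (right) that overlap a peak of the other replicate, in percent, by score quartile of the list, for the V centre (red) and the I to IV centres (grey). Bars are 95% Wilson intervals; in the lowest replicate 2 quartile 30.0% of V peaks and 15.9% of the others were shared, and in the highest 94.8% and 93.3%.

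Shared members had higher medians of width and score percentile than unshared ones in both replicates. Shared replicate 2 members had a median width of 5307 bp and a median percentile of 71.3, and the 127 unshared ones 2164 bp and 26.6. The other centres together were close to this, with 5308 bp and 71.8 for shared peaks and 2351 bp and 29.6 for unshared ones. Shared replicate 1 members had 3856 bp and percentile 52.9, and the 23 unshared ones 3592 bp and 37.1. In the other centres together the replicate 1 widths went the other way, with 3552 bp for shared and 3763 bp for unshared peaks. The percentiles there were 55.0 and 43.6. Shared replicate 1 peaks were the narrower ones on I and III and the wider ones on II and IV. These are descriptions, with no test. Every one of the 254 and 337 members, shared or not, held at least 1 series-level peak. The other centres were nearly the same, where only 3 of 1113 replicate 1 peaks and 0 of 1524 replicate 2 peaks held none.

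A few strong members were found in 1 replicate only. These, and the window from 12.9 to 13.4 Mb, were singled out after their values were seen. Of the 68 replicate 1 members in the top score quartile of their list, 2 were unshared (2.94%, interval 0.810 to 10.1), against 10.5% (7.56 to 14.5) in the other centres, and these intervals overlap. Both lay in the window from 12.9 to 13.4 Mb. One, V:13020713-13035189, was 14.5 kb wide and scored 1436.29, and the nearest replicate 2 peak began 3.20 kb beyond it with a score of 58.11. The other, V:13162848-13182581, was 19.7 kb wide and scored 942.19, and the nearest replicate 2 peak was 29.6 kb away. They held 7 and 14 series-level peaks. Replicate 2 had 5 unshared members of 97 in its top quartile (5.15%, 2.22 to 11.5), near the 6.73% (4.67 to 9.62) of the other centres. The strongest, V:13381536-13397229, lay in the same window, was 15.7 kb wide and scored 3100, and no replicate 1 peak came closer than 13.2 kb. It held 7 series-level peaks, the best of which scored 95.82, at percentile 99.02. In that window replicate 1 covered 88.2 kb and replicate 2 73.5 kb, yet only 37.4 kb were covered in both. This window had the lowest share of replicate 1 peaks found in replicate 2, 71.4%, of the 21.

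Among the other unshared members of replicate 2, V:7057527-7064953 had a score of 3067.82 and lay 127.8 kb from the nearest replicate 1 peak. It held 7 series-level peaks, the best at 80.91. V:8413929-8427542 scored 1517.36 over 13.6 kb, V:7744785-7753812 scored 1490.09 over 9.03 kb and V:13565246-13568498 scored 1272.23 over 3.25 kb. Why these strong regions appear in 1 list and not in the other was not tested, and read depth is unknown.

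The series-level peaks of the V centre overlapped peaks of both replicates more often than those of other centres. Of 1490 members, 641 did so (43.0%, 40.5 to 45.5), against 35.6% in the other centres, a difference of 7.41 points (4.69 to 10.2). Peaks found only in replicate 2 made up 31.0%, against 35.0%, and peaks found only in replicate 1 made up 5.91%, against 6.90%. The 299 found in neither made up 20.1%, against 22.5%. The density deficit was correspondingly smaller for peaks in both replicates, with 60.2 per Mb on V and 86.0 elsewhere, a ratio of 0.700 (0.641 to 0.763), than for those in replicate 2 only, 0.514 (0.465 to 0.567), or in neither, 0.516 (0.455 to 0.584). These ratios come from the same counts as the shares above and are not a separate result. The interval of the ratio for peaks in both replicates overlaps neither of the other 2. Yet several series-level peaks often lie in a single replicate peak, so these intervals may be too narrow. The higher sharing of the series-level members was seen in each of the 4 score quartiles, by 5.90 to 7.99 points, with each interval above 0.

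Replicate peaks of the V centre held fewer series-level peaks per length than those elsewhere. A replicate 1 peak of the V centre held a median of 2 series-level peaks (quartiles 1.25 and 4), against 3 in the other centres, and a replicate 2 peak a median of 3 (quartiles 2 and 5), against 3. Per 10 kb of replicate peak this came to 5.97 against 6.42 in replicate 1 and to 6.64 against 7.21 in replicate 2. No test was run on this.

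Overlapping peaks of the replicates were then joined into domains, each a run of overlapping peaks with at least 1 from each list. The V centre held 203 such domains, or 19.1 per Mb (16.5 to 21.9), against 26.1 per Mb (24.3 to 27.9) elsewhere, a ratio of 0.731 (0.624 to 0.854). The intervals of their sizes overlapped, with a median width of 5452 bp (4952 to 6141), against 5656.5 bp (5419 to 5951), and 4074 bp (3585 to 4435) covered in both replicates, against 3931.5 bp (3637 to 4180). In the V centre 176 domains (86.7%, 81.3 to 90.7) consisted of 1 peak from each replicate, against 83.4% (80.7 to 85.8). In 21 more a single replicate 2 peak joined several replicate 1 peaks, in 4 the reverse was the case, and 2 had several of both.

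At the 176 one-to-one domains the ends of the replicates' peaks differed by medians of 211 bp on the left and 199.5 bp on the right. The left ends lay within 200 bp of each other at 86 (48.9%) and the right ends at 88 (50.0%), against 45.0% and 45.5% in the other centres. Of each pair, replicate 2 had the wider peak at 121 (68.8%, 61.6 to 75.1), against 77.1% (73.8 to 80.1), with a median width ratio of replicate 2 to replicate 1 of 1.10, against 1.14. These intervals overlap, and the difference was not tested. Scores of the paired peaks had a Spearman rho of 0.71, against 0.63 elsewhere, and of 0.54 at the 137 pairs with both scores below 3100, against 0.50. These correlations are descriptions over sites of the same lists.

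The 10 domains with most bases covered in both replicates held 161.7 kb of shared coverage, 15.3% of that in all 203. The first was V:13780590-13809341, 28.8 kb long with 26.2 kb covered in both. It was 1 peak in replicate 2, the widest member of that list and wider than all but 2 of its 3818 peaks, and 3 peaks of 10.5, 11.4 and 4.28 kb in replicate 1. Its best scores were modest, 318.08 in replicate 1 (percentile 61.0) and 476.5 in replicate 2 (percentile 54.5), though its best series-level peak scored 106.62. It supplied 47.6% of the shared coverage of the window from 13.4 to 13.9 Mb.

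The second domain, V:11898663-11918802, began at the same base in both replicates, with peaks of 19.8 kb in replicate 1 and 20.1 kb in replicate 2. It scored 2649.95 in replicate 1 and 1659.67 in replicate 2, and only 1 peak of the whole replicate 1 list was wider than its own. It also held the widest series-level member, V:11902736-11918003, of 15.3 kb with a score of 50.02. The domains V:8781522-8797491, V:6878814-6893821 and V:8845855-8861253 were likewise 1 peak in each list. They shared 15.5, 14.9 and 14.1 kb and had replicate 2 scores of 3100 each, with replicate 1 scores of 2051.51, 2216.56 and 3100.

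Other wide domains were split or ranked differently by the replicates. V:9773766-9790629, with 15.9 kb shared, scored 146.62 at most in replicate 1 (percentile 38.7) and 2536.56 in replicate 2 (percentile 87.2). V:15499100-15514642 was 2 peaks in replicate 1, with a best score of 1402.41 (percentile 88.4), and 1 peak in replicate 2, with 273.65 (percentile 41.996). Its 14.1 kb of shared coverage were 80.7% of all that the sparse window from 15.4 to 15.9 Mb held. V:14781180-14801172 was 2 peaks of 6.92 and 7.15 kb in replicate 1 and 1 of 19.8 kb in replicate 2. V:14496029-14511299 scored 535.01 in replicate 1 (percentile 72.7) and 97.05 in replicate 2 (percentile 16.2), a low score for a peak of 13.8 kb. V:14110260-14124605 was 3 peaks in replicate 1 and 1 in replicate 2. The mean score percentile of these 10 wide domains ranged from 44.5 to 96.2.

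**Figure D5:**
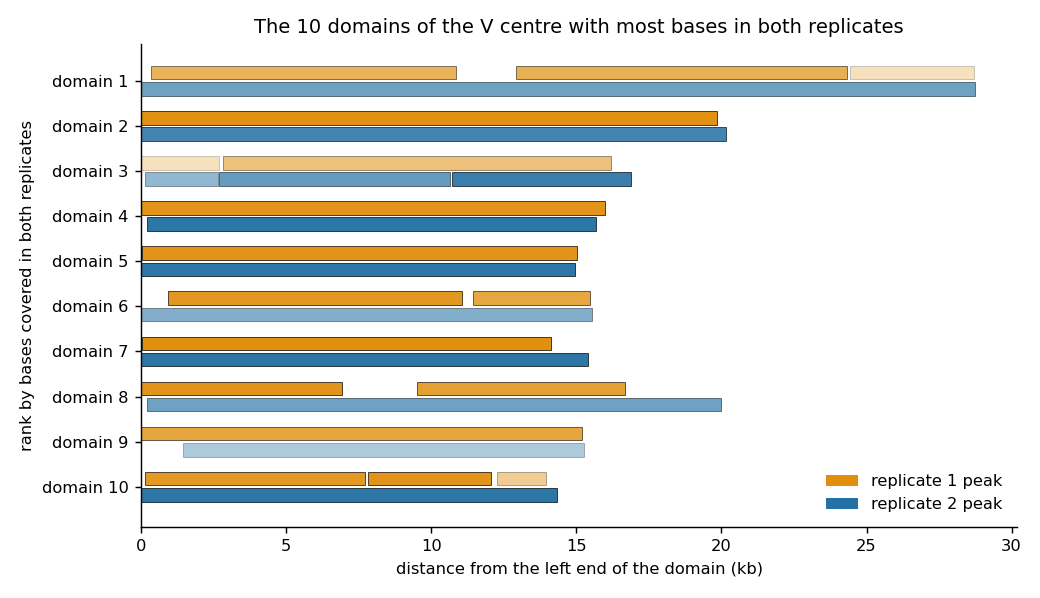
The 10 domains of the V centre with most bases covered in both replicates, each drawn from its left end in kb, with replicate 1 peaks in orange above replicate 2 peaks in blue; darker bars have a higher score percentile in their list. Domain 1 is 1 peak of 28.8 kb in replicate 2 and 3 peaks in replicate 1, and domain 2 has the same left end in both.

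By score, 1 domain led the V centre and 13 tied behind it. The leader, V:9542443-9549355, was 6.91 kb long and carried the highest replicate 1 score, 3233.06, with 3100 in replicate 2 and a best series-level score of 115.93. The 13 domains with a score of 3100 in both lists cannot be ranked among themselves. They were 3.97 to 15.7 kb long, with a median of 8.67 kb, lay in 7 of the windows, and each was 1 peak in either list. The 4 widest of them were V:14682104-14697811 of 15.7 kb, V:8845855-8861253 of 15.4 kb, V:6219722-6232123 of 12.4 kb and V:8887926-8900161 of 12.2 kb, named by width alone.

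Across the 21 full windows the replicates varied together. For covered kb per window Pearson's r was 0.89 and Spearman's rho 0.87, against 0.79 and 0.77 over the 61 windows of the other centres. For peak numbers r was 0.71 and rho 0.47, against 0.69 and 0.68 there. These are descriptions over neighbouring windows, and the differences were not tested. The 5 richest windows held 37.8% of the shared bases of the V centre, and the 5 poorest held 10.32%. An even spread would give 23.5%, which the richest windows exceed whenever windows differ at all. The other centres showed such an excess too. Their 5 richest windows held 44.4% on I, 49.7% on II, 49.2% on III and 41.0% on IV. Even spreads there would give 32.6%, 32.1%, 35.6% and 28.1%. Shared coverage varied over V windows with an SD of 44.8% of its mean (n = 21 windows), against 38.6% over the 61 windows of the other centres, among which II reached 46.1%. In peak number the variance over the mean was 1.31 in replicate 1 and 1.42 in replicate 2 for V, against 1.89 and 1.61 elsewhere, where the windows of 4 chromosomes with different means were joined.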

How the data were processed

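AMA-1 ChIP peaks were deposited as 1 list per replicate and 1 series-level list. Peaks were called with MACS and MACS v2, per the source columns of the files, on WS220 coordinates, per the file headers; the submitters' processing notes name BWA and ce10. Not given in the sources used here are thresholds, controls, read depth and the making of the series-level list. The score of each peak is the authors' deposited value, of unstated scale, and was used only to rank peaks within a list.

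Peaks were assigned by midpoint. Chromosome lengths were the highest peak end over the 3 lists. Overlap was at least 1 bp. Intervals are 95% Poisson, exact conditional binomial, Wilson, Newcombe or order-statistic. Counting functions were checked on simulated lists. The regions named are the 10 domains with most shared bases, the 5 with the highest mean score percentile (1 leader and the 4 widest of 13 tied), the 3 richest and 3 poorest full windows, the 3 longest peak-free stretches, the 3 highest-scoring series-level peaks and the peaks beside each edge; others are said to be chosen after their values were seen. The interval and measures were chosen with earlier results of these data known. Scripts ran under Python 3.11.15 with scipy 1.17.1, pandas 2.3.3, numpy 2.4.6 and matplotlib 3.10.9.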

Additional observations from a re-analysis of the deposited data

How the results depend on the processing

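Of 74 values recomputed under other settings, 41 stayed within the limits set for them, 32 moved beyond them and 1 changed direction. The cause was not tested for any. For ratios the limit was the SD over replicates, for peak sharing the Wilson interval, and for the richest windows a fixed factor. A ratio from 1 replicate alone always lies within that SD of the replicate mean, so those values were bound to stay. The count of 41 includes them and partly reflects how the limits were set. The density ratio of V to the other centres (0.662) was 0.687 without chromosome I, 0.689 without III, 0.610 without IV, 0.579 in the series-level list and 0.682 for peaks scoring at least the median. The covered share ratio (0.688) was 0.631 without IV and 0.625 in the series-level list. The median width ratio (1.07) was 1.05 against the middle part of each other autosome, 1.04 with the bounds of the published recombination map, 1.05 without I, 1.10 with peaks closer than 500 bp merged and 1.05 in the series-level list. All these ratios stayed on the same side of 1.

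The sharing of peaks was recomputed for the V centre alone. Whether V still differs from the other centres under these settings was therefore not tested. Requiring overlap of 50% of the shorter peak left the shares at 90.6% for replicate 1 peaks, 61.7% for replicate 2 peaks and 41.1% for series-level peaks. With midpoints within 200 bp, 35.4% of replicate 1 peaks, 26.7% of replicate 2 peaks and 3.15% of series-level peaks were shared. With peaks at or above the median score alone the shares were 82.1%, 54.01% and 31.1%. With replicate 2 shortened to as many peaks as replicate 1 they were 80.7%, 75.8% and 39.2%. With peaks closer than 500 bp merged the series-level share was 35.9%, and with either replicate left out, so that only the other had to be overlapped, it ranged from 48.9% to 74.03%.

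The ratio of left to right density (1.11) was 1.23 for peaks at or above the median score, 1.19 with replicate 2 shortened and 1.09 in the series-level list. Alternatives chosen after seeing the data removed the right end past 14.9 Mb. On V alone this gave a density ratio of 0.728, a covered share ratio of 0.773, a width ratio of 1.09 and a left to right ratio of 0.901, the value that changed direction. In all 5 centres it gave a density ratio of 0.719 and a covered share ratio of 0.755. No paired analysis was possible because the groups that share replicate numbers are ChIP and input, and the inputs were not analysed here. Read depth is unknown, so no lower limit of detection can be given.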
